A study of Mus musculus with 9 samples.

Results

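Solute carriers are membrane proteins that move nutrients, ions and metabolites across the plasma membrane and the membranes of organelles. Their genes were selected on their measured FPKM levels, as the symbols that begin with Slc and a number and reached 1 FPKM or more in 3 or more of the 9 libraries of the series. Slc2a1, Slc2a3, Slc16a1, Slc16a3 and Slc25a20 were left out of the choice. This gave 166 genes, of 372 Slc symbols and 22017 gene symbols in the table. FPKM scales the fragments of a gene by the length of its transcript and by library size, so levels of different genes can be set side by side. RNA sequencing measured the messenger RNA of mouse T helper cells in 3 groups of 3 libraries. All began as naive T cells of wild-type C57BL/6 spleens and were activated for 3 days with antibodies to CD3 (5 ug/mL) and CD28 (1 ug/mL). These units are those of the treatment protocol, whereas the design text gives the same figures in mg/mL. After that they were kept in their cytokines and, from day 5, in IL-2 at 100 U/mL. On day 7 came a second activation, with 0.05 ug/mL of each antibody, and RNA was taken on day 10. Th17-derived Th1 cells (Th17-1 in the titles) received the Th17 condition first and the Th1 condition from day 7. Th1 cells (Th1-1) received the Th1 condition, IL-12 at 10 ng/mL with an antibody to IL-4, both times. Th17 cells (Th17-17) received the Th17 condition both times, with IL-6 at 20 ng/mL, IL-1beta at 10 ng/mL, TGF-beta at 1 ng/mL and antibodies to interferon-gamma, IL-12 and IL-4. Th17-derived Th1 cells thus shared the second condition with Th1 cells and the first with Th17 cells, while Th1 and Th17 cells differed in both. No library of day 7 was analysed here.

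A dividing T cell must import amino acids, sugars, phosphate and metals, and solute carriers set much of that supply. In T cells the glutamine carrier Slc1a5, the leucine carrier Slc7a5 with its heavy chain Slc3a2, and glucose carriers are known for being induced by activation. Other families act inside the cell: family 25 in the inner mitochondrial membrane, family 35 in the Golgi apparatus and endoplasmic reticulum, and families 30 and 39 on zinc and other metals. By family number the 166 genes fell into amino acid and peptide (22), sugar (10), nucleotide sugar (20), ion (47, of which 22 carry metals), mitochondrial (36) and other organic solute carriers (28). The remaining 3, Slc9a3r1, Slc7a6os and Slc4a1ap, bear an Slc name but encode a scaffold, an opposite-strand gene and an adaptor.

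Of the other Slc symbols, 201 were under the level, 75 of them at 0 in all 9 libraries. Among genes of known interest, the cystine carrier Slc7a11, the iron exporter Slc40a1 and the sodium-calcium exchanger Slc8a1 had no library at 1 FPKM or more. The level was reached in all 9 libraries by 147 of the 166 and in fewer by 19. Just inside, Slc16a10, Slc29a4, Slc4a4 and Slc6a8 reached it in exactly 3 libraries. Slc16a10, Slc29a4 and Slc4a4 passed through the 3 Th17 libraries alone, so their selection required a difference. Slc6a8, Slc37a2 and Slc4a11 reached the level in no Th17 library, and Slc15a3, Slc16a4 and Slc24a5 in no Th1 library. A test of these genes against the group under the level is not independent of the selection. Just outside, Slc25a47, Slc27a6, Slc34a3 and Slc46a1 reached the level in 2 libraries, with highest values of 1.24, 1.25, 1.56 and 1.87 FPKM.

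The upstream sequences of 3 genes with some of the largest differences between Th17 cells and the other groups are shown so that the data on them can be read beside their promoters. Each is the 250 bases before the start of a RefSeq transcript in the GRCm38.p6 build, on the strand of the gene. They stand at chr10:40142255-40142504 (minus strand) for Slc16a10, chr5:88887010-88887259 (plus strand) for the first of the 2 listed starts of Slc4a4, and chr9:37255739-37255988 (minus strand) for Slc37a2. Capitals mark the letters GCGTG or their reverse complement, the core to which the aryl hydrocarbon receptor binds, in Slc16a10 and Slc4a4, and TGANTCA, the core to which AP-1 factors bind, in Slc37a2.
Slc16a10: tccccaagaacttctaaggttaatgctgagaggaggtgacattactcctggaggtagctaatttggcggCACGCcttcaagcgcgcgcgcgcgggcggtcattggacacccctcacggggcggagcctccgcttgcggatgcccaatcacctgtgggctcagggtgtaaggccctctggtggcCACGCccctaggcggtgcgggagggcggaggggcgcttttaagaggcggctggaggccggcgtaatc
Slc4a4: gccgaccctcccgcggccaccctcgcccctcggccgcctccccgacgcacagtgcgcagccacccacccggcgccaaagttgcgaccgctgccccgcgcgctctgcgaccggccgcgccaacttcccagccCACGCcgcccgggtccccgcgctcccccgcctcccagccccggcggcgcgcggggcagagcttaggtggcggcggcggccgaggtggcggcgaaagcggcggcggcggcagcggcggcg
Slc37a2: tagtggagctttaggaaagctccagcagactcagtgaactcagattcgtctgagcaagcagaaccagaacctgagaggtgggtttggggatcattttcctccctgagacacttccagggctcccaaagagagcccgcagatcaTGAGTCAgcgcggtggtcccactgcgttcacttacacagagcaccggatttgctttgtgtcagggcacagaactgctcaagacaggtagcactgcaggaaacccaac
Searched on both strands, GCGTG stood in 47.6% of the 166 promoters listed for 125 of the solute carrier genes and in 45.7% of the 10670 promoters of all tested genes. TGANTCA stood in 5.42% and 4.15% of them, and TTCNNNGAA, the core to which STAT factors bind, in 5.42% and 5.95%. None of the sequences shown holds TTCNNNGAA. The stretch before the second listed start of Slc4a4, at chr5:89027716-89027965 and not shown, holds none of the 3 motifs. The Slc4a4 stretch shown lies inside the GENCODE gene span given below. The 3 motifs do not overlap in these sequences, and a match says only that these letters are present.

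The mean level of a solute carrier gene over the 9 libraries ran between 0.785 and 323.9 FPKM with a median of 8.98 FPKM, and 76 genes averaged at least 10 FPKM. Mitochondrial carriers held 34.9% of the summed FPKM of the 166 genes, ion carriers 18.8% and sugar carriers 2.78%. Highest of all were Slc25a5, the adenine nucleotide exchanger 2, and Slc25a3, the mitochondrial phosphate carrier. Slc25a5 averaged 309 ± 14.6 FPKM in Th17-derived Th1, 324 ± 27.4 in Th1 and 339 ± 39.1 FPKM in Th17 cells (mean ± SD of 3 libraries, as throughout). For Slc25a3 the means were 233 ± 4.65, 244 ± 20.8 and 234 ± 16.3 FPKM in the same order of groups. The groups overlapped in both genes, and neither passed the test in any comparison. Slc25a5 has near-identical pseudogene copies, and how shared reads were assigned is not given, so its level is uncertain.

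The plot of class sums by library shows the summed levels. The 36 mitochondrial carriers summed to 1023 ± 23 FPKM in Th17-derived Th1, 1069 ± 50.9 in Th1 and 1073 ± 60.1 FPKM in Th17 cells. The 47 ion carriers summed to 575 ± 5.22, 566 ± 23 and 567 ± 4.16 FPKM in those groups. The 22 amino acid and peptide carriers summed to 391 ± 29.3 FPKM in Th17-derived Th1, 405 ± 75.4 in Th1 and 419 ± 39.7 FPKM in Th17 cells. Their Th1 sums were 356.7, 491.6 and 365.8 FPKM in replicates 1, 2 and 3, so the spread there came from replicate 2. The 28 carriers of other organic solutes summed to 396 ± 6.86 FPKM in Th17-derived Th1, 418 ± 12.3 in Th1 and 441 ± 9.27 FPKM in Th17 cells, and all 3 Th17-derived Th1 sums lay below the other 6. The 10 sugar carriers summed to 87.8 ± 10.7 FPKM in Th17-derived Th1, 91.5 ± 17.4 in Th1 and 73 ± 4.25 FPKM in Th17 cells, with overlap between Th1 and Th17 libraries.

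**Figure D1:**
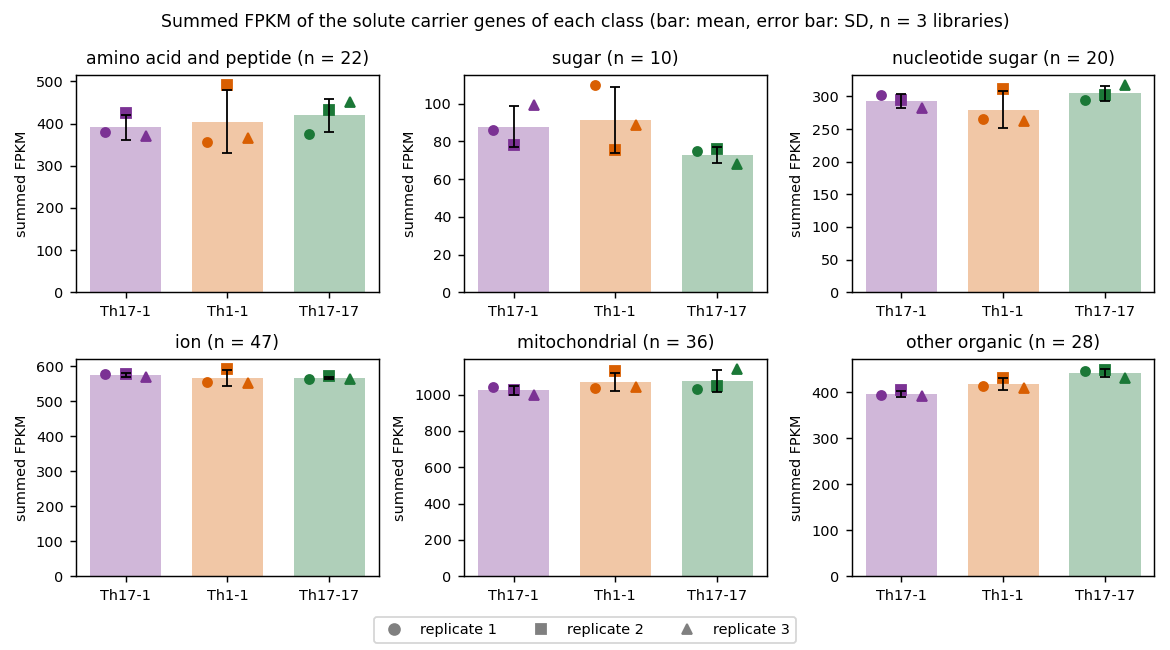
Summed FPKM of the solute carrier genes of each class (y axis, FPKM) in the 3 groups (x axis). Bars are means, error bars SD and points the 3 libraries of a group. In the amino acid and peptide panel Th1 replicate 2 stands at 491.6 FPKM, above the other 8 libraries.

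Differences were tested as log2(FPKM + 1) with limma across 10538 genes, two-sided, and a gene was called at a Benjamini-Hochberg adjusted p below 0.05. Fold changes below are on this scale, which understates those of low genes. Whether replicates are separate cultures or animals is not in the labels. The p-values therefore set each difference against the spread among these libraries only, and that spread may be technical. In bulk RNA, fewer cells of a type and less RNA per cell cannot be told apart. Between Th17-derived Th1 and Th1 cells 12 solute carrier genes were called higher and 9 lower, and 145 were not called (12.7% called). Of all tested genes 10.5% were called in this comparison, 5.67% higher and 4.81% lower. The median log2 difference was 0.01 over the solute carrier genes and 0.05 over all genes. Between Th17-derived Th1 and Th17 cells 10 were higher, 12 lower and 144 not called (13.3% called). The background there was 15.9%, with 6.43% higher and 9.49% lower, and the medians were -0.10 and -0.12. Between Th1 and Th17 cells 27 were higher, 43 lower and 96 not called (42.2% called). The background there was 42.9%, with 14% higher and 28.9% lower, and the medians were -0.15 and -0.17. The shares called thus lay within 3 percentage points of those of all genes in each comparison. The FPKM of the groups did not overlap for 61 of the 166 genes (36.7%) between Th17-derived Th1 and Th1, for 65 (39.2%) between Th17-derived Th1 and Th17 and for 95 (57.2%) between Th1 and Th17 cells. The shares over all tested genes were 29.2%, 43.2% and 52.9%. Against Th17 cells, these counts and the lower calls include Slc16a10, Slc29a4 and Slc4a4, whose selection required a lower level outside Th17 cells. The higher calls there include Slc37a2 and Slc4a11, which reached 1 FPKM in no Th17 library. Calls that set Th1 cells low include Slc15a3, Slc16a4 and Slc24a5, which reached 1 FPKM in no Th1 library. No comparison called 90 of the 166 genes. The 3 comparisons share libraries and are not independent.

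The split into higher and lower depended on scaling. With median-ratio scaling of the libraries, which moved the median gene of Th1 minus Th17 cells to -0.02 where the deposited values gave -0.17, the calls were 36 higher and 29 lower. They were 36 and 28 with quantile normalization. In Th17-derived Th1 against Th17 cells the calls were 12 higher and 5 lower with median-ratio scaling, whose median gene stood at -0.01, and 13 and 9 with quantile normalization. Against Th1 cells they were 11 and 15 with median-ratio scaling and 10 and 10 with quantile normalization. No called gene changed sign under any alternative run.

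**Figure D2:**
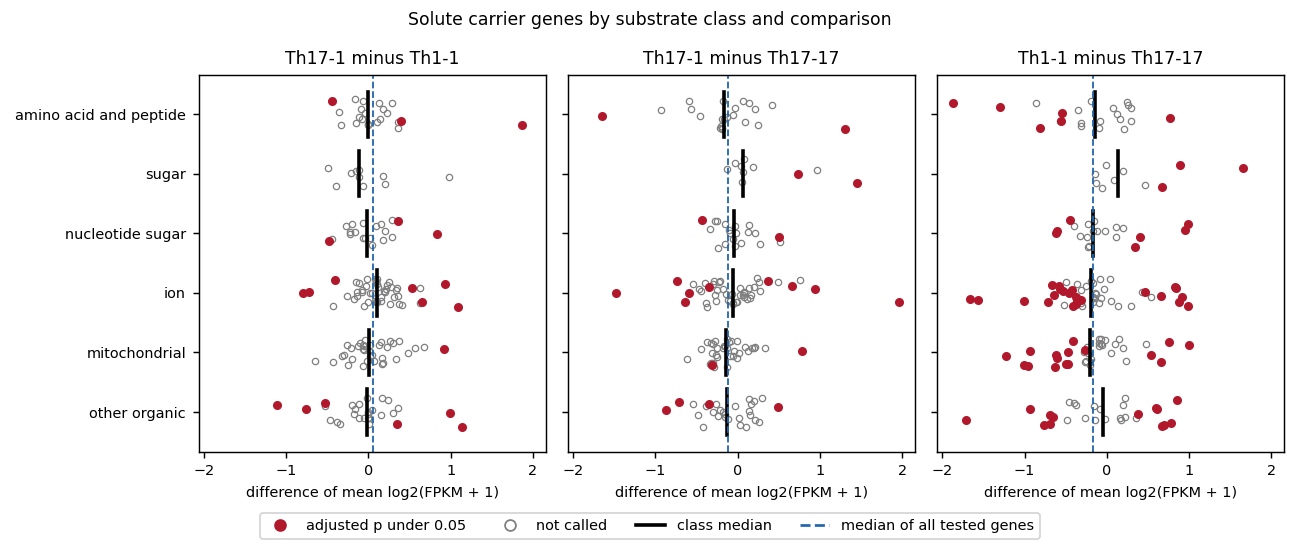
Difference of mean log2(FPKM + 1) (x axis) for each solute carrier gene by substrate class (y axis) in the 3 comparisons. Filled points passed the adjusted p threshold of 0.05, black bars are class medians, and the dashed line is the median of all tested genes. Calls are scattered on both sides in most classes and are most numerous in Th1 minus Th17.

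Amino acid and peptide carriers. Of 22 genes, 2 were higher and 1 lower in Th17-derived Th1 than in Th1 cells, 1 was higher and 1 lower than in Th17 cells, and 1 was higher and 5 lower in Th1 cells set against Th17 cells. The gene lower than in Th17 cells was Slc16a10, also among the 5, and its selection required this. The carriers best known in activated T cells did not pass the test in any comparison. Slc1a5, the glutamine and neutral amino acid exchanger (chromosome 7, 16781340 to 16798274 in GRCm38), was at 59.5, 94.2 and 63.6 FPKM in replicates 1, 2 and 3 of Th17-derived Th1 cells. It was at 61.7, 112 and 62.7 FPKM in Th1 and at 64.9, 104 and 78.4 FPKM in Th17 cells. Replicate 2 was the highest library of Slc1a5 in each group, and the groups overlapped. Slc7a5, the leucine carrier LAT1 (chromosome 8, 121881150 to 121907694), was at 42.1, 44.4 and 37.8 FPKM in Th17-derived Th1, at 34.1, 72.1 and 39.3 FPKM in Th1 and at 31, 30.9 and 54.9 FPKM in Th17 cells. Its partner Slc3a2, the heavy chain CD98, was at 56.7, 54.8 and 49.8 FPKM, at 47.3, 72.2 and 53.6 FPKM and at 37.2, 43.8 and 60.3 FPKM in those groups. Both were high in Th1 replicate 2 and in Th17 replicate 3, and the groups overlapped.

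The spread of these genes leaves wide intervals. For Slc7a5 the 95% interval of the log2 difference ran between -0.81 and 0.51 for Th17-derived Th1 minus Th1 and between -0.52 and 0.79 for Th17-derived Th1 minus Th17 cells. For Slc1a5 they ran between -0.70 and 0.52 and between -0.80 and 0.43. Slc38a2, a sodium-coupled neutral amino acid carrier that responds to amino acid shortage, varied less, at 42.4 ± 1.40 FPKM in Th17-derived Th1, 44.5 ± 3.18 in Th1 and 39.8 ± 0.955 FPKM in Th17 cells. Its interval for Th17-derived Th1 minus Th1 ran between -0.25 and 0.11. Slc7a1, the arginine and lysine carrier CAT-1, averaged 17.7 ± 4.57, 16.1 ± 5.63 and 18.4 ± 4.81 FPKM in Th17-derived Th1, Th1 and Th17 cells and was not called. Slc39a6, a zinc importer, also stood apart in Th1 replicate 2, at 64.2 FPKM against 31.9 and 31.6 FPKM in replicates 1 and 3.

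**Figure D3:**
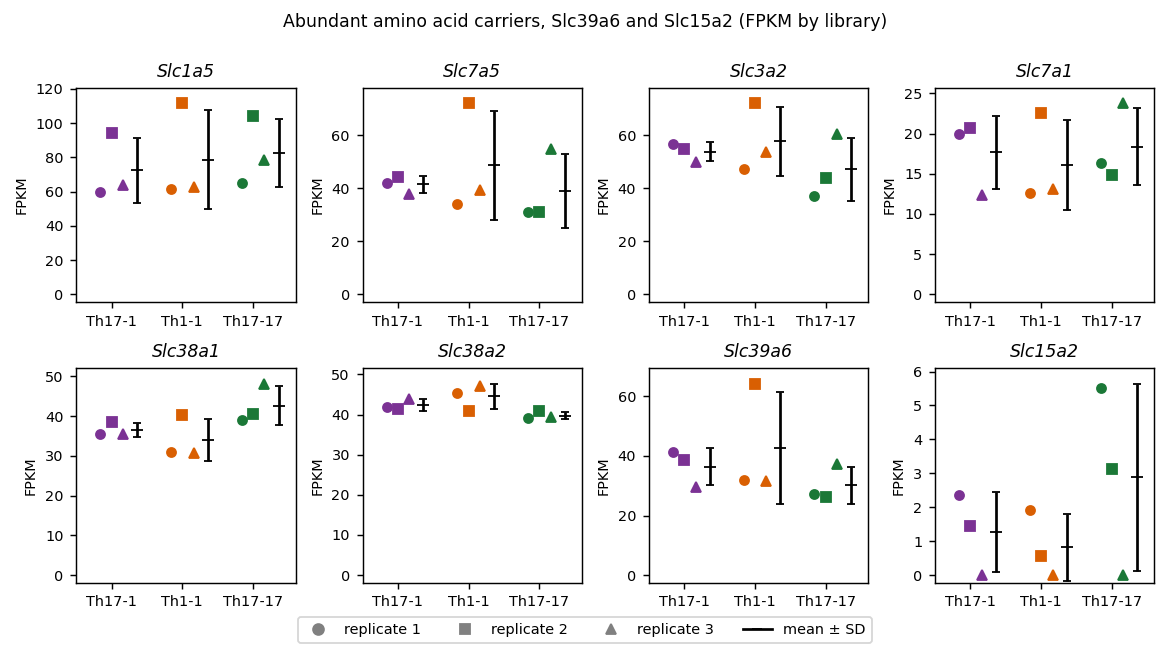
FPKM of 6 abundant amino acid carriers, the zinc carrier Slc39a6 and the peptide carrier Slc15a2 (y axes) by group (x axes), with 3 libraries as points and mean ± SD beside them. Slc7a5 and Slc39a6 stand at 72.1 and 64.2 FPKM in Th1 replicate 2, and Slc15a2 is listed at 0 in replicate 3 of each group.

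Slc15a3, a peptide and histidine carrier of lysosomes and endosomes (chromosome 19, 10839727 to 10859362), was one of 2 solute carrier genes higher in Th17-derived Th1 cells than in both other groups. It was at 5.76, 5.25 and 3.55 FPKM in Th17-derived Th1 cells, at 0.788, 0.753 and 0.258 FPKM in Th1 cells and at 1.94, 0.832 and 1.39 FPKM in Th17 cells. All 3 Th17-derived Th1 libraries lay above the other 6. The difference was 3.65-fold against Th1 cells (log2 difference 1.87) and 2.46-fold against Th17 cells (1.30, limma adjusted p = 0.00571). The former is given as a description with no test, since the gene reached 1 FPKM in no Th1 library. The call against Th17 cells held in every alternative that tested the gene. Its exons overlap those of Tmem132a on the opposite strand, which averaged 0.297 FPKM in Th17-derived Th1, 0.0837 in Th1 and 0.178 FPKM in Th17 cells. Whether counting used the strand is not given in the sources used here. Slc15a2, another peptide carrier, was listed at 0 in replicate 3 of each group, whereas replicates 1 and 2 stood at 2.36 and 1.45 FPKM in Th17-derived Th1, at 1.91 and 0.551 FPKM in Th1 and at 5.50 and 3.14 FPKM in Th17 cells. It was not called, but Th1 cells were lower than Th17 cells in the fits with a replicate block (limma adjusted p = 0.0353), with array weights (0.00967) and without replicate 3 of every group (0.0438).

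Slc16a10, the aromatic amino acid carrier TAT1 (chromosome 10, 40033532 to 40142258), whose promoter is shown above, was low outside Th17 cells. It was at 0.481, 0.741 and 0.948 FPKM in Th17-derived Th1, at 0.401, 0.653 and 0.362 FPKM in Th1 and at 4.13, 4.58 and 4.40 FPKM in Th17 cells. The Th17 libraries lay above the other 6. The log2 differences were -1.65 for Th17-derived Th1 minus Th17 and -1.87 for Th1 minus Th17 cells. They are given as a description with no test, since the gene was selected through its Th17 level. Slc7a6, the light chain y+LAT2 of a cationic amino acid exchanger, averaged 12.3 ± 1.34 FPKM in Th17-derived Th1, 9.45 ± 2.04 in Th1 and 17.2 ± 1.10 FPKM in Th17 cells. It was lower in Th1 than in Th17 cells (log2 difference -0.81, limma adjusted p = 0.00258). Slc6a6, the taurine carrier, averaged 30 ± 1.40, 22.7 ± 2.44 and 33.8 ± 2.36 FPKM in Th17-derived Th1, Th1 and Th17 cells. It was higher in Th17-derived Th1 than in Th1 cells (1.31-fold, adjusted p = 0.0386, limma), a call lost in 7 of 9 fits without 1 library, and lower in Th1 cells than in Th17 cells (-0.56, adjusted p = 0.00261). Slc1a4, a serine and alanine exchanger, was the amino acid carrier called higher in Th1 than in Th17 cells, at 1.73 ± 0.128 against 0.630 ± 0.399 FPKM (adjusted p = 0.00741, limma). Slc36a1, a lysosomal carrier of small amino acids, averaged 8.57 FPKM in Th17-derived Th1 and 12 FPKM in Th1 cells (adjusted p = 0.0403, limma). Its call was lost in 8 of the 9 fits without 1 library, at adjusted p-values up to 0.142.

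Sugar carriers. None of the 10 genes was called between Th17-derived Th1 and Th1 cells by limma, while 2 were higher in Th17-derived Th1 than in Th17 cells and 3 were higher and 0 lower in Th1 cells set against Th17 cells. Slc37a2, a sugar phosphate exchanger of the endoplasmic reticulum (chromosome 9, 37227585 to 37255738), was at 2.87, 2.42 and 3.09 FPKM in Th17-derived Th1, at 3.73, 2.14 and 4.64 FPKM in Th1 and at 0.212, 0.480 and 0.487 FPKM in Th17 cells. All 3 Th17 libraries lay below the other 6, and the Th17-derived Th1 and Th1 libraries overlapped. It was 2.73-fold higher in Th17-derived Th1 than in Th17 cells, and Th1 cells exceeded Th17 cells 3.15-fold. These values are given as a description with no test. The gene reached 1 FPKM in no Th17 library and was selected through the groups where it is high. Its relative Slc37a3 was at 16.7, 16.1 and 20.0 FPKM in Th17-derived Th1, at 22.2, 17.6 and 19.3 FPKM in Th1 and at 10.3, 8.70 and 11.6 FPKM in Th17 cells, with the same layout of groups. It was 1.66-fold higher in Th17-derived Th1 than in Th17 cells (adjusted p = 0.00726, limma). Slc2a8, an intracellular hexose carrier, averaged 4.56 FPKM in Th17-derived Th1, 6.85 in Th1 and 3.86 FPKM in Th17 cells and was called between the last groups (adjusted p = 0.0209, limma). Its call was lost in 3 of 9 fits without 1 library. Slc2a6, a lysosomal hexose carrier, had 10.6, 6.28 and 13 FPKM in Th17-derived Th1, 11.4, 1.55 and 3.97 FPKM in Th1 and 5.01, 3.92 and 4.39 FPKM in Th17 cells and was not called. The glucose carriers Slc2a1 and Slc2a3 and the lactate carriers Slc16a1 and Slc16a3, left out above, stood beside these. Slc2a1 averaged 38.8 FPKM in Th17-derived Th1, 44.1 in Th1 and 16.9 FPKM in Th17 cells.

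Nucleotide sugar carriers. The best-known members of this family supply the Golgi apparatus and endoplasmic reticulum with sugar donors. The class follows the family number, so some of its genes may carry other substrates. Of 20 genes, 2 were higher and 1 lower in Th17-derived Th1 than in Th1 cells. Against Th17 cells 1 was higher and 1 lower, and between Th1 and Th17 cells 4 were higher and 3 lower. Slc35d1, a carrier of UDP-glucuronic acid (chromosome 4, 103170649 to 103215164), was at 6.52, 6.52 and 8 FPKM in Th17-derived Th1, at 9.58, 10.2 and 10.7 FPKM in Th1 and at 4.53, 4.06 and 5.42 FPKM in Th17 cells. The groups did not overlap, with Th1 highest, and all 3 comparisons called the gene. It was lower in Th17-derived Th1 than in Th1 cells (log2 difference -0.48, adjusted p = 0.0367, limma) and 1.41-fold higher than in Th17 cells (adjusted p = 0.0241). These 2 calls were lost in 5 and 4 of 9 fits without 1 library, at adjusted p-values up to 0.148 and 0.102. Slc35g1 (chromosome 19, 38395980 to 38405610) was at 31.8, 30.6 and 26.1 FPKM in Th17-derived Th1, at 16.6, 16.6 and 15 FPKM in Th1 and at 28.2, 26.8 and 21.1 FPKM in Th17 cells. Th1 libraries lay below the other 6. The difference between Th17-derived Th1 and Th1 cells was 1.78-fold (SE 0.125 on the log2 scale, adjusted p = 0.00507, limma) and held in every alternative run. Slc35c1, the GDP-fucose carrier needed for selectin ligands, averaged 16.6 ± 1.32, 12.7 ± 0.948 and 19.8 ± 0.809 FPKM in Th17-derived Th1, Th1 and Th17 cells. It was called higher in Th17-derived Th1 than in Th1 cells (log2 difference 0.36, adjusted p = 0.0408, limma). That call was lost in 7 of 9 fits without 1 library, at adjusted p-values up to 0.1725. Slc35a1, the CMP-sialic acid carrier, was lower in Th17-derived Th1 than in Th17 cells, at 7.26 against 10.1 FPKM (adjusted p = 0.017, limma), and this call was lost in 4 of 9 fits without 1 library.

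Ion carriers. Among 47 genes, 4 were higher and 3 lower in Th17-derived Th1 than in Th1 cells, 4 were higher and 5 lower than in Th17 cells, and 7 were higher and 16 lower in Th1 cells set against Th17 cells. Of the 25 that carry protons, bicarbonate, sodium, potassium, calcium, chloride, sulfate or phosphate, 72% were called between Th1 and Th17 cells (6 higher, 12 lower, median log2 difference -0.36), against 42.9% of all genes. Of the 22 metal carriers 22.7% were called there (1 higher, 4 lower, median -0.16). Outside the metal carriers, the lower counts against Th17 cells include Slc4a4, whose selection required a lower level outside Th17 cells.

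Slc4a11, a proton and ammonia conducting protein of the bicarbonate family (chromosome 2, 130684113 to 130697519), was the other gene higher in Th17-derived Th1 cells than in both other groups. It was at 6.96, 5.33 and 4.25 FPKM in Th17-derived Th1, at 1.58, 2.04 and 2.51 FPKM in Th1 and at 0.569, 0.419 and 0.994 FPKM in Th17 cells. The 3 groups did not overlap. It was 2.13-fold higher than in Th1 cells (log2 difference 1.09, SE 0.196, adjusted p = 0.0109, limma) and 3.91-fold higher than in Th17 cells (1.97). The latter is given as a description with no test, since the gene reached 1 FPKM in no Th17 library. The call against Th1 cells was lost when replicate 2 of Th17-derived Th1 cells was left out (adjusted p = 0.0501, limma). Among all tested genes 0.901% were higher in Th17-derived Th1 cells than in both other groups, and 0.503% were lower than in both. Slc15a3 and Slc4a11 are 2 of 166 genes on the higher side, and 0 of 166 were on the lower side.

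The bicarbonate carriers differed in direction. Slc4a4, the electrogenic sodium bicarbonate cotransporter (chromosome 5, 88886818 to 89239653), was at 0.163, 0.233 and 0.227 FPKM in Th17-derived Th1, at 0, 0.363 and 0.0765 FPKM in Th1 and at 2.49, 2.34 and 2.31 FPKM in Th17 cells. Like Slc16a10 it was selected through the Th17 libraries alone, and its log2 differences were -1.49 for Th17-derived Th1 minus Th17 and -1.57 for Th1 minus Th17 cells. Slc4a7, an electroneutral sodium bicarbonate cotransporter, averaged 14.4 ± 1.36 FPKM in Th17-derived Th1, 19.9 ± 4.09 in Th1 and 9.97 ± 0.900 FPKM in Th17 cells and was higher in Th1 than in Th17 cells (1.88-fold, adjusted p = 0.00167, limma). Slc4a8, a sodium-driven chloride bicarbonate exchanger, averaged 2.1 ± 0.396, 0.967 ± 0.0901 and 2.26 ± 0.516 FPKM and was lower in Th1 than in Th17 cells (-0.72, adjusted p = 0.00603, limma).

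The potassium chloride cotransporters, which let cells shed salt and volume, also split. Slc12a7, or KCC4 (chromosome 13, 73733094 to 73816754), was at 12.1, 14.9 and 17.6 FPKM in Th17-derived Th1, at 7.81, 6.27 and 7.75 FPKM in Th1 and at 26.5, 29.9 and 20.1 FPKM in Th17 cells. The groups did not overlap, and Th17-derived Th1 cells lay between the others. Its log2 differences were 0.93 for Th17-derived Th1 minus Th1 (SE 0.173, adjusted p = 0.0122), -0.74 for Th17-derived Th1 minus Th17 (adjusted p = 0.0214) and -1.67 for Th1 minus Th17 cells (adjusted p = 0.000212, limma). The first was lost without Th17-derived Th1 replicate 2 (adjusted p = 0.0577). The second was lost without replicate 1 or 2 of Th17-derived Th1 or of Th17 cells (adjusted p-values 0.0608 to 0.0956) and with median-ratio scaling (0.0561). Slc12a4, or KCC1 (chromosome 8, 105943590 to 105966097), was at 11.3, 11.3 and 11 FPKM in Th17-derived Th1, at 13.7, 11.6 and 13.1 FPKM in Th1 and at 5.87, 6.76 and 7.72 FPKM in Th17 cells. Here Th17 cells were lowest. It was 1.58-fold higher in Th17-derived Th1 than in Th17 cells (adjusted p = 0.00456, limma), in every alternative run.

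Among phosphate carriers, Slc20a1 (PiT-1, chromosome 2, 129198764 to 129211616), the highest ion carrier, was at 88.1, 89.0 and 102 FPKM in Th17-derived Th1, at 125, 119 and 126 FPKM in Th1 and at 89.0, 88.1 and 90.0 FPKM in Th17 cells. The Th1 libraries lay above the other 6. It was lower in Th17-derived Th1 than in Th1 cells (log2 difference -0.41, SE 0.0799, adjusted p = 0.0149, limma), a call lost in 3 of 9 fits without 1 library, and 1.38-fold higher in Th1 than in Th17 cells (adjusted p = 0.00222). Slc20a2 (PiT-2) ran the other way, at 5.12 ± 0.351, 5.37 ± 0.375 and 8.18 ± 0.149 FPKM in Th17-derived Th1, Th1 and Th17 cells. It was lower than in Th17 cells in both Th17-derived Th1 (-0.59, adjusted p = 0.0035, limma) and Th1 cells (-0.53, adjusted p = 0.0024). Its exons overlap Smim19 on the opposite strand, at 6.82, 6.93 and 7.98 FPKM in the same groups. Slc26a10, of the anion exchanger family, averaged 1.78, 3.56 and 1.31 FPKM and was highest in Th1 cells. The oppositely oriented B4galnt1, whose exons overlap it, averaged 122, 205 and 100.2 FPKM in the same groups, and its part in the value of Slc26a10 was not tested. The sodium proton exchangers Slc9a5 and Slc9a8 were lower in Th1 than in Th17 cells, with log2 differences of -0.57 and -0.36, and the call of Slc9a8 was lost in 1 of 9 fits without 1 library. It was also lost with median-ratio scaling (adjusted p = 0.0924, limma) and quantile normalization (0.0899), and that of Slc9a5 without replicate 3 of every group (0.0532).

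Of the metal carriers, Slc39a8, a zinc and manganese importer (chromosome 3, 135825279 to 135888572), was at 23.3, 19.5 and 14.9 FPKM in Th17-derived Th1, at 13.1, 18.9 and 11.1 FPKM in Th1 and at 8.96, 9.74 and 9.45 FPKM in Th17 cells. Th17 libraries lay below the other 6, and the Th17-derived Th1 and Th1 libraries overlapped. It was 1.92-fold higher in Th17-derived Th1 than in Th17 cells (SE 0.198 on the log2 scale, adjusted p = 0.0132, limma), a call lost in 3 of 9 fits without 1 library (adjusted p-values 0.0506 to 0.0616). Slc39a4, a zinc importer, averaged 7.53 ± 1.82 FPKM in Th17-derived Th1, 13.8 ± 2.73 in Th1 and 8.25 ± 0.628 FPKM in Th17 cells. Th17-derived Th1 cells were lower than Th1 cells (-0.80, adjusted p = 0.0251, limma), a call lost in 4 of 9 fits without 1 library. Slc39a13, which releases zinc from the secretory pathway, was lower in Th17-derived Th1 than in Th17 cells, at 2.88 ± 0.329 against 5.10 ± 0.876 FPKM (-0.65, adjusted p = 0.0106, limma). It overlaps exons of the proteasome gene Psmc3 on the opposite strand, which averaged 91.5, 89.0 and 101.8 FPKM in Th17-derived Th1, Th1 and Th17 cells. The abundant zinc carriers Slc39a7 and Slc39a6 and the zinc exporter Slc30a1 were not called in any comparison.

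Mitochondrial carriers. Of 36 genes, 1 was called higher and 0 lower by limma between Th17-derived Th1 and Th1 cells (2.78% called, against 10.5% of all genes), and 1 was higher and 1 lower than in Th17 cells. Between Th1 and Th17 cells 4 were higher and 12 lower (44.4% called, median log2 difference -0.20), close to the 42.9% and the median of -0.17 over all genes. Slc25a24, a calcium-regulated exchanger of ATP-magnesium for phosphate (chromosome 3, 109123149 to 109168457), was at 35.8, 36.6 and 38.7 FPKM in Th17-derived Th1, at 46.3, 39.4 and 43.6 FPKM in Th1 and at 22, 19.6 and 21.7 FPKM in Th17 cells. The Th17 libraries lay far below the others, and the groups did not overlap. It was 1.72-fold higher in Th17-derived Th1 than in Th17 cells (SE 0.0911 on the log2 scale, adjusted p = 0.000905, limma) and 1.99-fold higher in Th1 than in Th17 cells (adjusted p = 0.000108), in every alternative run. Slc25a23 and Slc25a25, of the same carrier type, ran the other way in Th1 cells. Slc25a23 was at 5.67, 6.65 and 6.29 FPKM in Th17-derived Th1, at 4.48, 3.05 and 3.10 FPKM in Th1 and at 9.40, 10.3 and 5.37 FPKM in Th17 cells. It was lower in Th1 than in Th17 cells (-1.01, adjusted p = 0.00571, limma), and Slc25a25 likewise (-0.61, adjusted p = 0.0187); the call of Slc25a25 was lost in 4 of 9 fits without 1 library.

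The adenine nucleotide exchanger 1, Slc25a4, was at 87.9, 90.9 and 85.1 FPKM in Th17-derived Th1, at 114, 118 and 99.2 FPKM in Th1 and at 69.6, 75.1 and 83.4 FPKM in Th17 cells. No 2 groups overlapped, and Th1 cells exceeded Th17 cells 1.44-fold (adjusted p = 0.00298, limma). The amino acid carriers Slc25a15, for ornithine, and Slc25a22, for glutamate, were lower in Th1 than in Th17 cells. Slc25a15 averaged 3.46 ± 0.814 FPKM in Th17-derived Th1, 2.56 ± 0.975 in Th1 and 5.75 ± 0.233 FPKM in Th17 cells, and Slc25a22 averaged 14 ± 2.76, 9.31 ± 3.11 and 18.2 ± 1.28 FPKM. Their log2 differences for Th1 minus Th17 cells were -0.95 and -0.94 (adjusted p = 0.00525 and 0.00834, limma). The iron carriers Slc25a37 (mitoferrin-1) and Slc25a28 (mitoferrin-2) were also lower there (-0.48 each), as was the glycine carrier Slc25a38 (-0.42). Slc25a28 and Slc25a38 lost the call in 3 and 1 of 9 fits without 1 library. Both lost it with median-ratio scaling (limma adjusted p = 0.0664 and 0.116), quantile normalization (0.0811 and 0.134) and without replicate 3 of every group (0.127 and 0.07). Slc25a37 was also lower in Th17-derived Th1 than in Th17 cells (-0.3123, adjusted p = 0.04165, limma), a call lost in 8 of 9 fits without 1 library. Slc25a27, an uncoupling protein family member, was at 2.54, 2.48 and 4.65 FPKM in Th17-derived Th1, at 1.71, 0.788 and 1.11 FPKM in Th1 and at 4.73, 4.97 and 2.80 FPKM in Th17 cells. Its call between Th17-derived Th1 and Th1 cells (adjusted p = 0.0494, limma) was lost in 8 of 9 fits without 1 library.

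Carriers of other organic solutes. Of 28 genes, 3 were higher and 3 lower in Th17-derived Th1 than in Th1 cells, 1 was higher and 3 lower than in Th17 cells, and 7 were higher and 6 lower in Th1 cells set against Th17 cells. Both lower counts against Th17 cells include Slc29a4, whose selection required a lower level outside Th17 cells. Slc44a2, a choline carrier (chromosome 9, 21320698 to 21355028), was at 98.2, 99.8 and 103 FPKM in Th17-derived Th1, at 80.9, 82.4 and 73.8 FPKM in Th1 and at 133, 132 and 120 FPKM in Th17 cells. Slc17a9, which loads ATP into vesicles (chromosome 2, 180725263 to 180742280), was at 21.7, 23.2 and 17.1 FPKM, at 9.74, 12.6 and 7.63 FPKM and at 37.4, 40.5 and 26.6 FPKM in those groups. In both genes Th17-derived Th1 cells lay between the other groups with no overlap. With Slc12a7 they are the 3 genes called higher than in Th1 and lower than in Th17 cells. Slc35d1 was the 1 gene called the other way on both sides. For Slc44a2 the log2 differences were 0.34 against Th1 (SE 0.0795, adjusted p = 0.0291) and -0.35 against Th17 cells (adjusted p = 0.0184, limma). For Slc17a9 they were 0.99 (SE 0.205, adjusted p = 0.0186) and -0.72 (adjusted p = 0.045, limma). The calls of Slc44a2 were lost in 7 and 4 of 9 fits without 1 library and those of Slc17a9 in 4 and 6, at adjusted p-values up to 0.162. Their calls between Th1 and Th17 cells (-0.69 and -1.71) held in every alternative run.

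Slc43a3, the purine nucleobase carrier (chromosome 2, 84936579 to 84958509), was at 33.7, 33.8 and 33.6 FPKM in Th17-derived Th1, at 50.5, 47.8 and 49.5 FPKM in Th1 and at 31, 30.9 and 29.6 FPKM in Th17 cells. The Th1 libraries stood well above the other 6. It was lower in Th17-derived Th1 than in Th1 cells (log2 difference -0.53, SE 0.071, adjusted p = 0.00313, limma), in every alternative run, and its interval against Th17 cells ran between -0.02 and 0.30. Slc28a2, a sodium-coupled purine nucleoside carrier, averaged 50.8 ± 9.40, 70.6 ± 13.9 and 45.8 ± 6.69 FPKM and was higher in Th1 than in Th17 cells (1.52-fold, adjusted p = 0.0259, limma), a call lost in 4 of 9 fits without 1 library. The equilibrative nucleoside carrier Slc29a1 averaged 30.2 ± 8.34, 28.9 ± 5.46 and 39.9 ± 4.79 FPKM and was not called. Summed, the 5 nucleoside and nucleobase carriers stood at 120.5 ± 1.45 FPKM in Th17-derived Th1, 154.8 ± 9.51 in Th1 and 124.0 ± 3.80 FPKM in Th17 cells.

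Slc14a1, the urea carrier (chromosome 18, 78100091 to 78142119), was at 5.18, 4.30 and 4.52 FPKM in Th17-derived Th1, at 2.06, 0.978 and 1.83 FPKM in Th1 and at 4.68, 3.58 and 3.57 FPKM in Th17 cells. Th1 libraries lay below the other 6. It was 2.19-fold higher in Th17-derived Th1 than in Th1 cells (SE 0.175 on the log2 scale, adjusted p = 0.00579, limma), in every alternative that tested it. Among vitamin carriers, Slc52a3, for riboflavin, was at 3.19, 3.11 and 5.29 FPKM in Th17-derived Th1, at 8.51, 8.67 and 10.9 FPKM in Th1 and at 3.79, 4.04 and 6.69 FPKM in Th17 cells. The level in Th17-derived Th1 was lower than in Th1 cells (-1.11, SE 0.222, adjusted p = 0.016, limma), a call lost without replicate 1 or 2 of Th17-derived Th1 or replicate 3 of Th1 cells (adjusted p-values 0.0705 to 0.0765). Slc19a2, for thiamine, averaged 12.2 ± 0.717, 14.2 ± 2.17 and 8.37 ± 0.954 FPKM and was higher in Th1 than in Th17 cells (1.62-fold, adjusted p = 0.0026, limma). The folate carrier Slc19a1 was not called. Slc22a5, the carnitine carrier, averaged 5.39 ± 0.751 FPKM in Th17-derived Th1, 3.97 ± 0.36 in Th1 and 6.81 ± 0.428 FPKM in Th17 cells and was lower in Th1 than in Th17 cells (-0.66, adjusted p = 0.00258, limma).

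**Figure D4:**
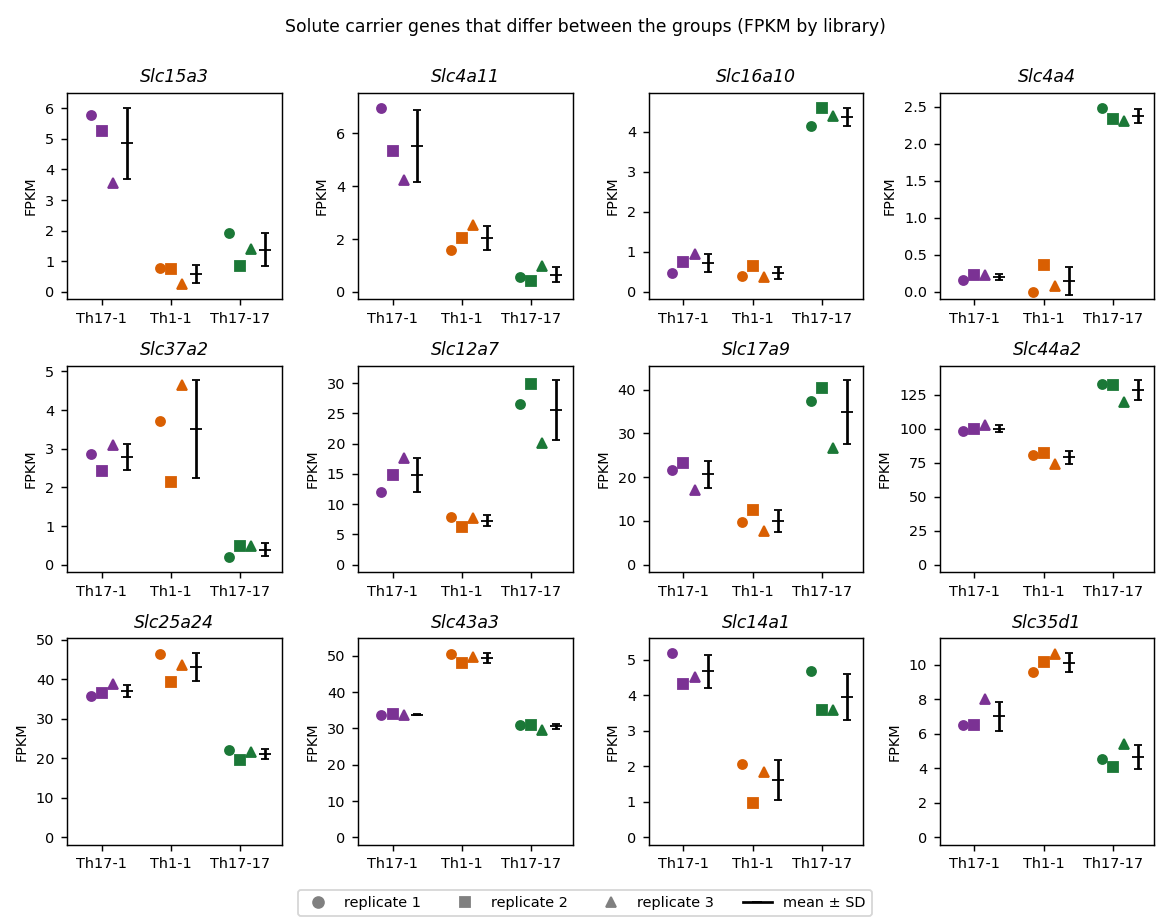
FPKM (y axes) of 12 solute carrier genes by group (x axes), with the 3 libraries as points and mean ± SD beside them. Slc15a3 and Slc4a11 stand highest in Th17-derived Th1 cells, Slc16a10 and Slc4a4 in Th17 cells, and Th17-derived Th1 cells lie between the others for Slc12a7, Slc17a9 and Slc44a2.

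Each comparison was also read without single libraries. Of the 21 calls between Th17-derived Th1 and Th1 cells, 4 held in every alternative that tested the gene: Slc14a1, Slc15a3 and Slc35g1 on the higher side and Slc43a3 on the lower. The filter of 5 FPKM did not test Slc14a1 and Slc15a3. Without Th17-derived Th1 replicate 2 the other 17 were lost. Slc15a3 reached 1 FPKM in no Th1 library, so its call here carries the limit of its selection. Among the calls between Th17-derived Th1 and Th17 cells, those that held in every alternative that tested the gene were Slc12a4, Slc15a3, Slc25a24 and Slc37a3 on the higher and Slc20a2 and Slc39a13 on the lower side. Slc37a2 and Slc4a11 are not counted there, since they reached 1 FPKM in no Th17 library. Slc16a10, Slc29a4 and Slc4a4 are not counted there either, since their selection required a lower level outside Th17 cells, and these 3 left the fit whenever a Th17 library was omitted. Of the 70 calls between Th1 and Th17 cells 41 held, Slc16a10, Slc29a4 and Slc4a4 among them with the same limit. Slc37a2, Slc4a11, Slc16a4 and Slc24a5 also held, with no library at 1 FPKM in the lower of the compared groups. The 41 included 4 of 6 amino acid and peptide, 12 of 23 ion, 8 of 16 mitochondrial and 9 of 13 other organic carriers. Slc16a10 is among those 4, Slc4a4 among the 12 and Slc29a4 among the 9. Beyond the losses given with each gene, median-ratio scaling and quantile normalization each ended the calls of Slc17a9, Slc35a1 and Slc25a37 between Th17-derived Th1 and Th17 cells, and median-ratio scaling also ended that of Slc44a2. Quantile normalization ended the calls of Slc6a6 and Slc35c1 between Th17-derived Th1 and Th1 cells and that of Slc25a25 between Th1 and Th17 cells. Some genes described as not called passed under an alternative. This was read for a chosen set of genes, which left out Slc39a7 and Slc30a1. Between Th1 and Th17 cells, Slc25a3 passed with quantile normalization, Slc38a2 with median-ratio scaling, and Slc19a1, Slc29a1, Slc38a1 and Slc38a2 without Th1 replicate 2. Slc29a1 also passed there without Th17-derived Th1 replicate 3 and when the compared groups alone were fitted, and Slc38a1 with equal library sums. Array weights added calls of Slc3a2, Slc7a1, Slc7a5, Slc29a1 and Slc39a6, among others. With these weights 51.5% of all tested genes were called between Th17-derived Th1 and Th1 cells. The shares were 43.7% between Th17-derived Th1 and Th17 and 67.5% between Th1 and Th17 cells. Slc2a6 was called between Th17-derived Th1 and Th1 cells without Th1 replicate 1, and between Th17-derived Th1 and Th17 cells when those groups alone were fitted.

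Transport genes outside the Slc names were read from lists drawn up by function. Calls of the genes in these lists, and in those of the next paragraph, were not checked under the alternatives. Of 12 tested ATP-driven ion pumps, 3 were higher and 0 lower in Th17-derived Th1 than in Th1 cells, 2 higher and 3 lower than in Th17 cells, and 3 higher and 5 lower in Th1 cells set against Th17 cells. The shares called were 25%, 41.7% and 66.7% in these comparisons, against 10.5%, 15.9% and 42.9% of all tested genes. Atp1b3, a beta chain of the sodium pump, was at 168, 180 and 166 FPKM in Th17-derived Th1, at 76.8, 81.1 and 71.9 FPKM in Th1 and at 317, 311 and 201 FPKM in Th17 cells. Th17-derived Th1 cells again lay between the others, and all 3 differences were called (adjusted p = 0.00359 against Th1 and 0.0254 against Th17 cells, and 9.39e-05 for Th1 against Th17 cells, limma). Atp2b4, a calcium pump of the plasma membrane, averaged 43 ± 3.21, 44.4 ± 5.13 and 13.1 ± 1.94 FPKM, and Th17 cells were low (adjusted p = 0.000144 for Th17-derived Th1 against Th17, limma). Of 40 tested carriers without an Slc name, 2 were higher and 4 lower in Th17-derived Th1 than in Th1 cells, 1 higher and 3 lower than in Th17 cells, and 9 higher and 11 lower in Th1 cells set against Th17 cells. The shares called were 15%, 10% and 50%, beside the same shares of all tested genes. Slco3a1, an organic anion carrier, was higher in Th17-derived Th1 cells than in both, at 32.3 ± 1.88 against 22.4 ± 1.72 in Th1 and 22.5 ± 2.19 FPKM in Th17 cells. Mcu, the mitochondrial calcium uniporter, was lower than in both, at 3.65 ± 0.137 against 5.10 ± 0.315 and 5.10 ± 0.401 FPKM.

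Of 31 genes that sense amino acids for the growth regulator mTORC1, 0 were higher and 1 lower in Th17-derived Th1 than in Th1 cells, 1 higher and 1 lower than in Th17 cells, and 3 higher and 8 lower in Th1 cells set against Th17 cells. The shares called were 3.23%, 6.45% and 35.5%, against 10.5%, 15.9% and 42.9% of all tested genes. Sesn2, the leucine sensor Sestrin2, was called in all 3, at 14.3 ± 0.631 FPKM in Th17-derived Th1, 22.9 ± 4.68 in Th1 and 9.13 ± 1.24 FPKM in Th17 cells. Of 15 tested genes of iron and zinc handling, 0 were higher and 3 lower in Th17-derived Th1 than in Th1 cells, 3 higher and 2 lower than in Th17 cells, and 6 higher and 2 lower in Th1 cells set against Th17 cells. The shares called were 20%, 33.3% and 53.3%, beside the same shares of all tested genes. Mt3, a metallothionein that buffers zinc, was at 2.37, 2.65 and 2.66 FPKM in Th17-derived Th1, at 10.3, 19.6 and 12.3 FPKM in Th1 and at 0, 0.137 and 0.139 FPKM in Th17 cells. Ftl1, the ferritin light chain, averaged 605 ± 27.3, 1160 ± 223 and 479 ± 32.9 FPKM, and Hmox1, which frees iron from heme, averaged 8.42 ± 1.59, 24.5 ± 12.3 and 3.10 ± 0.323 FPKM. All 3 genes were highest in Th1 and lowest in Th17 cells with no overlap of groups. Th1 replicate 2 was their highest library, as for Slc39a6 and for the transferrin receptor gene Tfrc, at 125.6 FPKM against 47.4 and 46.2 FPKM in the other Th1 libraries. Metallothionein and ferritin genes have close paralogs or pseudogenes, so their levels are uncertain.

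Read depth is unknown, a library summed to 382581 to 405985 FPKM, and the correlation between libraries of 1 group, across genes that are not independent replicates, was 0.964 to 0.993. The T cell markers were present in every library. The summed macrophage markers were at 0 to 0.428 FPKM, and S100a8 and S100a9 of the neutrophil list were at 0 in every library. Ly6g, the remaining neutrophil marker, was at 9.38 to 34.7 FPKM in Th17-derived Th1, 2.25 to 3.05 FPKM in Th1 and 0.0761 to 0.711 FPKM in Th17 cells. Other marker sums differed between groups at low levels. The 4 dendritic cell markers summed to 1.92 to 4.73 FPKM in Th17-derived Th1, 4.16 to 9.03 in Th1 and 2.1 to 4.06 FPKM in Th17 cells, with Flt3 at 0 in every library. The 3 NK cell markers summed to 0.117 to 0.496, 0.337 to 1.4 and 3.11 to 7.19 FPKM in those groups, almost all of it Klrb1c. The 4 B cell markers summed to 1.17 to 2.38, 0.844 to 2.08 and 2.95 to 4.01 FPKM. Cd8a, of cytotoxic T cells, stood between 104 and 141 FPKM in the libraries numbered 3 and between 15.3 and 54.9 FPKM elsewhere. Without replicate 3 of every group the calls were 7 higher and 5 lower for Th17-derived Th1 against Th1, 9 and 11 for Th17-derived Th1 against Th17 and 24 and 35 for Th1 against Th17 cells. The part of other cells in the results was not tested.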

How the data were processed

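The authors deposited FPKM values (fragments scaled by transcript length and mapped fragments) of 22017 gene symbols in 9 libraries, with no read counts. Per the submitters' processing notes, the mm10 build, HISAT2 and DESeq2 were used; the sources used here do not give versions, roles, annotation, strandedness or the handling of multi-mapped reads. Low values shared no steps between libraries (at most 1.18% to 1.63% of low genes had 1 common ratio, within 0.01 on the log2 scale). Depth is therefore unknown and no counting interval is given.

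Groups and replicate numbers came from the sample titles, and no pair of columns was identical. Values were analysed as log2(FPKM + 1) for the 10538 genes that reached 1 FPKM in 3 or more libraries. limma 3.58.1 (R 4.3.3) with a mean-variance trend was fitted to all 9 libraries without a replicate block (6 residual degrees of freedom before moderation). Two-sided p-values were adjusted over all tested genes by the Benjamini-Hochberg method. The fit was tested on simulated data. Gene positions are from GENCODE on GRCm38, in which all 166 genes were found, and promoters from RefSeq. Tables and figures used Python 3.11.15, pandas 2.3.3 and matplotlib 3.10.9.

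The solute carrier genes, the classes and the lists were chosen with earlier results of these data known. Named were the most abundant and most different genes per class, direction and comparison, those set apart from both other groups, and a list of key carriers. Exons of 21 of the 166 genes overlap another gene in the table, and their values are uncertain. The alternatives changed the pseudocount, the filter or the scaling, added the replicate number as a block or array weights, fitted the compared groups only, or omitted libraries. Some single genes are counted in the totals but not reported here by name.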

Additional observations from a re-analysis of the deposited data

How the results depend on the processing

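No called solute carrier gene changed sign under any alternative that tested it, but the balance of calls and the medians depended on scaling. Th1 against Th17 cells had 27 higher and 43 lower genes, but 36 and 29 with median-ratio scaling and 36 and 28 with quantile normalization, and their median log2 difference of -0.15 became -0.0095 and 0.0065. For Th17-derived Th1 against Th17 cells the median of -0.0977 became 0.00787 and 0.00203, and against Th1 cells the median of 0.00505 became -0.0373 and -0.0371. For Th17-derived Th1 against Th1 cells, 12 higher genes became 7 with a filter of 5 FPKM (which tests fewer genes), 46 with array weights, 7 without replicate 3 of every group and 3 to 20 without 1 library. The 9 lower genes became 15 with median-ratio scaling, 5 with only the compared groups in the fit, 30 with array weights, 5 without replicate 3 of every group and 1 to 13 without 1 library. Against Th17 cells, 10 higher genes became 22 with array weights and 6 to 12 without 1 library, and 12 lower genes became 5 with median-ratio scaling, 42 with array weights and 2 to 19 without 1 library. For Th1 against Th17 cells, 27 higher genes became 19 to 31 without 1 library, and 43 lower genes became 28 with quantile normalization, 65 with array weights and 26 to 50 without 1 library. The shares called of all tested genes moved too, from 10.5%, 15.9% and 42.9% in the order given. They were 51.5%, 43.7% and 67.5% with array weights and 6.51%, 11% and 31% without replicate 3 of every group. Without 1 library they were 3% to 17.8%, 6.53% to 22.4% and 28.9% to 51.6%. The cause of these changes was not tested. With the replicate number as a block the counts were 11 and 9, 13 and 11, and 30 and 43, in the order given. Same-numbered libraries did not deviate together throughout. Their correlations were -0.178, 0.537 and 0.659 between Th17-derived Th1 and Th1 cells. They were 0.149, 0.0648 and -0.0115 between Th17-derived Th1 and Th17 cells, and 0.333, -0.177 and -0.00482 between Th1 and Th17 cells. The main fit did not take the numbers to pair the samples. Single genes did follow the number, since in replicate 3 of each group Slc15a2 was listed at 0 and Cd8a was highest. What same-numbered libraries share is not in the labels and was not tested. Depth is unknown, so how far it limits the low genes cannot be given.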
